A study of Mus musculus with 32 samples.

Results

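CaMKII, the calcium/calmodulin-dependent protein kinase II, was followed here through 6 of the 55573 genes counted. The genes were chosen by name: Camk2a, Camk2b, Camk2d and Camk2g, which encode the alpha, beta, delta and gamma subunits of the kinase, and Camk2n1 and Camk2n2, which encode its endogenous protein inhibitors. The rule for membership uses no measured value, although the family was picked with earlier results of these data known, and all 6 passed the filter on low counts in every comparison.

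CaMKII is a large holoenzyme in which subunits from the same or different genes assemble around a central hub. Calcium-loaded calmodulin opens each subunit, neighbouring subunits then phosphorylate one another, and the kinase stays active after calcium has fallen. It is among the most abundant proteins of excitatory synapses and is needed for long-term potentiation. The alpha subunit is mainly neuronal and its mRNA is a classical dendritically localised message, whereas the beta subunit binds actin filaments and its mRNA is regarded as mostly somatic. The delta and gamma subunits are found in many tissues. The inhibitors are small brain-rich proteins that bind the active kinase.

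Primary hippocampal neurons from neonatal C57BL/6 mice (P0.5), wild type (WT) or Mettl3Flox/Flox, were grown for 15 days on porous inserts, so that somata stayed on top and neurites grew to the underside. Mettl3 is the catalytic subunit of the enzyme that writes N6-methyladenosine (m6A) on mRNA. Both genotypes received an AAV with Cre-P2A-dTomato under the human synapsin promoter at day 7 in vitro (50000 viral particles per cell), which gave Mettl3-/- (KO) neurons in the floxed cultures and left glia untargeted by that promoter. All cultures were silenced with 1 µM TTX and 50 µM D-AP5 for 16 h at day 14 (Ctrl), and some were then depolarised with 55 mM KCl for 2 h. Tissue of both sexes was pooled within a litter, the duplicates came from distinct litters, and Ctrl and KCl cultures were set up from the same litter. The 8 groups (WT or KO, soma or neurites, Ctrl or KCl) held 2 RNA-seq libraries each. A further 16 libraries of the same kinds of RNA went through DART-seq, in which a fusion of APOBEC1 to a YTH domain deaminates cytidines beside m6A, and only pooled means of these were analysed.

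The 16 libraries held 33789183 to 71394235 assigned fragments, and a member was counted with 409 to 328650 fragments per library. Levels are given as TMM-scaled CPM, the fragments of a gene relative to those of the whole library. Mettl3 lay at 13.2 to 17.3 CPM in WT soma and at 6.11 to 11.6 CPM in KO soma, and at 8.90 to 12.5 CPM in WT neurites and at 3.88 to 7.90 CPM in KO neurites. Every KO library was therefore below every WT library of the same fraction, although Mettl3 reads remained. Summed markers of neurons lay at 3566 to 4112 CPM in WT soma and 3729 to 4104 CPM in WT neurites, with none of the 10 genes at 0 in all libraries. Glia were also present: summed astrocyte markers lay at 1140 to 1433 CPM in WT soma and 1942 to 3107 CPM in WT neurites. Of the 8 genes, 3 were higher in every neurite than in every soma library, as were 3 of the 10 neuronal genes and 14.8% of all genes. By WT Ctrl means, Gfap was at 529 CPM in soma and 1513 CPM in neurites, and Slc1a2 at 236 and 238 CPM. By WT KCl means, Aqp4, Slc1a2, Gja1 and S100b were lower in neurites than in soma, and the other astrocyte genes were higher. Summed markers of the oligodendrocyte lineage lay at 57.8 to 69.4 and 77.2 to 124 CPM, those of microglia at 10.7 to 17.2 and 17.8 to 25.9 CPM, and those of fibroblasts and vascular cells at 12.1 to 28.4 and 22.6 to 78.7 CPM in WT soma and neurites. In this material, fewer cells of a type and less RNA per cell cannot be told apart.

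The KCl-treated Mettl3 KO culture of replicate 1 stood apart. Its neuronal markers summed to 1040 CPM in soma and 522 CPM in neurites, against 2898 to 4088 CPM in the other 6 KO libraries. Its astrocyte markers summed to 9222 and 18032 CPM (1930 to 6858 in the other KO libraries) and its oligodendrocyte lineage markers to 3511 and 6963 CPM (84.9 to 203). Log2 differences that use this culture are given with and without its 2 libraries. Spread between replicates was larger in KO than in WT throughout, with a biological coefficient of variation in edgeR of 0.505 over the KO and 0.151 over the WT libraries.

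DART-seq placed 26 m6A sites in 5 of the 6 RNAs, and Camk2d was not among the 5643 RNAs listed with a site. The site calls were restricted by the authors to a C in AAC or GAC, with the m6A just before the edited C. Of the 26 sites, 17 lay in a 3′UTR, 8 in coding sequence and 1 in an intron of Camk2b. The most edited sites of Camk2n1, Camk2g, Camk2b and Camk2n2 are shown with 10 genomic bases on either side, written 5′ to 3′ on the strand of the RNA, from the GRCm38 genome. Capitals mark the AAC or GAC whose last base was edited. Sites of Camk2a are given by distance only.
Camk2n1, chr4:138457766-138457786, plus strand: aaacaaacAACaaatgtaatc
Camk2g, chr14:20760405-20760425, minus strand: gcaaattcAACgcccggagaa
Camk2g, chr14:20741418-20741438, minus strand: cgggacagAACagccccctct
Camk2b, chr11:5982555-5982575, minus strand: cagccccaGACaaacagcacc
Camk2b, chr11:5970033-5970053, minus strand: ggccatggAACagtggcaggg
Camk2n2, chr16:20619524-20619544, minus strand: gcagatagAACaggtgttgag

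The most edited site of the family lay in the 3′UTR of Camk2n1, the inhibitor with the long 3′UTR, in exon 2 of 2 and 988 bases after the stop codon. There the authors' mean over WT libraries was 13.1% C-to-U editing, above 95.6% of all 18231 sites. The other Camk2n1 site, 1233 bases after the stop codon, had 0.671%. Camk2g had its highest sites in coding sequence, at 7.32% in exon 11 of 19 and at 5.92% in exon 18 of 22 of transcript ENSMUST00000226630.1, and 5 weaker sites in its 3′UTR that reached 4.26%. The 3 coding sites of Camk2g together held 15.0 percentage points of editing and its 5 3′UTR sites 8.73.

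In Camk2b the highest site was in coding exon 15 of 21, at 4.01%. Its 4 3′UTR sites lay 1527 to 2009 bases after the stop codon and reached 3.72% at the printed site, 1785 bases after the stop codon. Camk2a held 5 of its 6 sites in the 3′UTR, from 464 to 2758 bases after the stop codon. The highest, 1732 bases after the stop codon, had 5.23%, and its only coding site had 0.966%. Camk2n2, the inhibitor with the short 3′UTR, had 1.25% at its printed 3′UTR site, 639 bases after the stop codon, and 0.451% at a coding site.

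Most sites of the family were edited little: the median was 1.58%, against 3.54% over all sites, and 7 of the 26 exceeded the median of all sites. A wider five-base consensus (A, G or T, then A or G, then A, C, and A, C or T) was present at 18 of 26 member sites, or 69.2%, and at 70.89% of all sites. Among the printed sites it was absent at the most edited ones of Camk2n1 and Camk2g and present at the others. Called sites made up 3.30% of the 182 AAC or GAC in the exons of Camk2a, 2.89% of 242 in Camk2b, 4.65% of 172 in Camk2g, 2.04% of 98 in Camk2n1 and 5.41% of 37 in Camk2n2. Camk2d holds 524 such triplets in its exons and had no called site. Its level was 19.6 to 36.2 CPM in WT libraries, while Camk2n2, at 11.7 to 33.0 CPM, had 2 sites. Per kilobase of exon, WT Ctrl means in soma and neurites were 1.34 and 1.24 CPM for Camk2d and 9.14 and 22.8 CPM for Camk2n2. The part of read depth in the absence was not tested.

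Summed over its sites, the editing score of each listed RNA was lower in the KO mean than in the WT mean. It was 0.183 in WT and 0.0411 in KO for Camk2b, 0.197 and 0.0820 for Camk2g, 0.139 and 0.0732 for Camk2n1, 0.100 and 0.0499 for Camk2a, and 0.0167 and 0.00585 for Camk2n2. The WT to KO ratio ran from 1.90 in Camk2n1 to 4.46 in Camk2b, beside a median of 3.10 over all RNAs. Since sites were called by the authors against the KO libraries, this fall is part of how they were chosen. Among all RNAs the WT score of Camk2g stood at the 75.7th percentile, that of Camk2b at 73.1, Camk2n1 at 62.1, Camk2a at 48.4 and Camk2n2 at 4.8.

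Between the fractions, the score of Camk2b was 0.124 in the soma mean and 0.252 in the neurite mean, and that of Camk2a 0.0603 and 0.113. The scores of Camk2g were 0.176 and 0.231, and those of Camk2n1 0.111 and 0.160. The score of Camk2n2 ran the other way, with 0.0245 in soma and 0.0103 in neurites. Of the 5 RNAs, 4 were thus listed higher in neurites, where 68.8% of all RNAs were also higher and the median neurite to soma ratio was 1.30. The highest ratio in the family was 2.04, in Camk2b. These are the authors' means, with no replicate values and no read depth behind them, and no test was made.

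**Figure D1:**
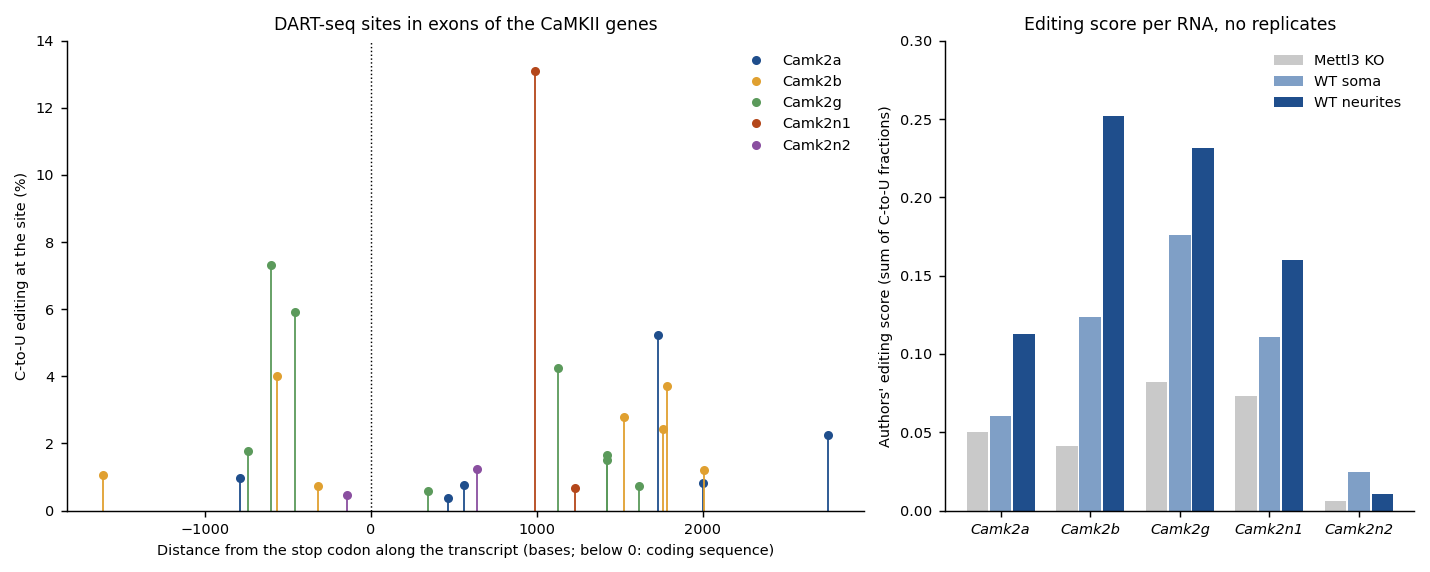
DART-seq sites and scores of the CaMKII genes. Left, C-to-U editing in percent (authors' mean over WT libraries) of each exonic site against its distance in bases from the stop codon, with the highest point at 13.1% in the Camk2n1 3′UTR; right, summed editing score of the 5 listed RNAs in the KO, WT soma and WT neurite means, in which only Camk2n2 was higher in soma than in neurites.

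The members differ in size and in how much of the transcript lies behind the stop codon. Camk2a (ENSMUSG00000024617) lies on the plus strand of chromosome 18 from 60925618 to 60988152 of mouse build GRCm38 (mm10), and its transcript with the longest 3′UTR has 18 exons, 478 codons for residues and a 3′UTR of 3372 bases. Camk2b (ENSMUSG00000057897; chromosome 11, 5969644 to 6066362, minus strand) has 21 exons, 542 residues and a 3′UTR of 2184 bases. Camk2d (ENSMUSG00000053819; chromosome 3, 126596302 to 126846326, plus strand) has 19 exons, 499 residues and a 3′UTR of 3591 bases. The fourth subunit gene, Camk2g (ENSMUSG00000021820), lies on the minus strand of chromosome 14 from 20734875 to 20794088, with 19 exons, 495 residues and a 3′UTR of 1990 bases. The inhibitor genes are compact, with 2 exons each. Camk2n1 (ENSMUSG00000046447; chromosome 4, 138454314 to 138460123, plus strand) encodes 78 residues ahead of a 3′UTR of 3335 bases. Camk2n2 (ENSMUSG00000051146; chromosome 16, 20619215 to 20621287, minus strand) encodes 79 residues ahead of a 3′UTR of 958 bases. No member exon overlapped an exon of another gene, and no stretch of 50 bases was shared between the transcripts of any 2 members, so the paralogues could be counted apart.

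The first comparison set the neurite fraction against the soma fraction for each RNA. Per the methods, neurites that did not cross the pores can be part of the soma fraction. In WT Ctrl cultures 2 of the 6 members were enriched in neurites: Camk2a by 4.17-fold and Camk2n2, an inhibitor, by 2.39-fold. The other subunits, Camk2b, Camk2d and Camk2g, and the inhibitor Camk2n1 did not pass the test of at least 1.5-fold and an adjusted p of at most 0.05. Over all 23200 genes tested, 8.99% were called higher in neurites and 4.52% lower.

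Camk2a, the dendritically localised alpha subunit, was at 1499 and 1719 CPM in the 2 WT Ctrl soma libraries and at 6370 and 7644 CPM in the neurite libraries. After KCl it was at 1823 and 1791 CPM in soma and at 6596 and 5589 CPM in neurites. All 4 WT neurite libraries were well above all 4 soma libraries. The log2 difference in Ctrl was 2.06 ± 0.14 (SE; 95% interval 1.75 to 2.37; edgeR adjusted p = 0.000116). In KCl it was 1.77 ± 0.14 (1.46 to 2.08; edgeR adjusted p = 0.000338), or 3.41-fold.

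Camk2b, the actin-binding beta subunit, was at 636 and 675 CPM in WT Ctrl soma and at 813 and 821 CPM in neurites. After KCl it was at 456 and 593 CPM in soma and at 755 and 708 CPM in neurites. The 4 neurite libraries again lay above the 4 soma libraries, but by a small margin. The log2 difference was 0.25 ± 0.14 in Ctrl (edgeR adjusted p = 0.217). In KCl it was 0.49 ± 0.14 (edgeR adjusted p = 0.0386), which is 1.41-fold and short of the 1.5-fold limit. Without soma KCl replicate 2, which leaves a single library in that group, it was 0.72, past the 1.5-fold limit.

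Camk2g, the gamma subunit, was the only member with every soma library above every neurite library in WT. It was at 198 and 205 CPM in Ctrl soma, 224 and 194 CPM in KCl soma, 173 and 177 CPM in Ctrl neurites and 160 and 164 CPM in KCl neurites. Its log2 differences were −0.27 ± 0.11 (edgeR adjusted p = 0.103) and −0.35 ± 0.11 (edgeR adjusted p = 0.0555), and neither passed. Camk2d, the delta subunit, was the rarest by level per kilobase and its groups overlapped. It was at 30.3 and 29.9 CPM in Ctrl soma, 36.2 and 19.6 CPM in Ctrl neurites, 24.6 and 35.8 CPM in KCl soma and 29.8 and 33.8 CPM in KCl neurites. The log2 differences of Camk2d were −0.18 ± 0.25 in Ctrl (95% interval −0.72 to 0.37) and 0.085 ± 0.25 in KCl (−0.46 to 0.63).

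Camk2n2, the less abundant inhibitor, was at 11.9 and 11.7 CPM in WT Ctrl soma and at 26.03 and 33.0 CPM in neurites. With KCl it was at 13.0 and 12.2 CPM in soma and at 27.9 and 24.3 CPM in neurites. The fractions were fully apart, and the log2 differences were 1.26 ± 0.16 in Ctrl (0.90 to 1.61; edgeR adjusted p = 0.000825) and 1.07 ± 0.16 in KCl (0.71 to 1.42; edgeR adjusted p = 0.0025). In KCl the fold was 2.10.

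Camk2n1, the other inhibitor, was at 89.8 and 90.0 CPM in Ctrl soma, 119 and 140 CPM in Ctrl neurites, 95.5 and 62.3 CPM in KCl soma and 117 and 106 CPM in KCl neurites. Here too the neurite libraries lay above the soma libraries, with log2 differences of 0.46 ± 0.18 (edgeR adjusted p = 0.0947) and 0.52 ± 0.18 (edgeR adjusted p = 0.0838). Without soma KCl replicate 1, which leaves a single library in that group, the KCl difference of Camk2n1 was 0.87.

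Across the 8 WT libraries, 4 members had all neurite libraries above all soma libraries, which 14.8% of all genes did, and 1 had the reverse order, which 9.11% of all genes did. In WT KCl, as in Ctrl, 2 of 6 members were called, beside 6.84% of genes higher and 2.7% lower. These calls rest on the spread of the WT libraries. In a fit that pools the spread of all 16 libraries no gene was called, and the adjusted p of Camk2a became 0.265 in Ctrl and 0.746 in KCl, and that of Camk2n2 0.713 and 0.99. Summed astrocyte markers were higher in WT neurite than soma libraries, though not each gene in both conditions, as given above. Their part in the enrichment of the members was not tested.

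**Figure D2:**
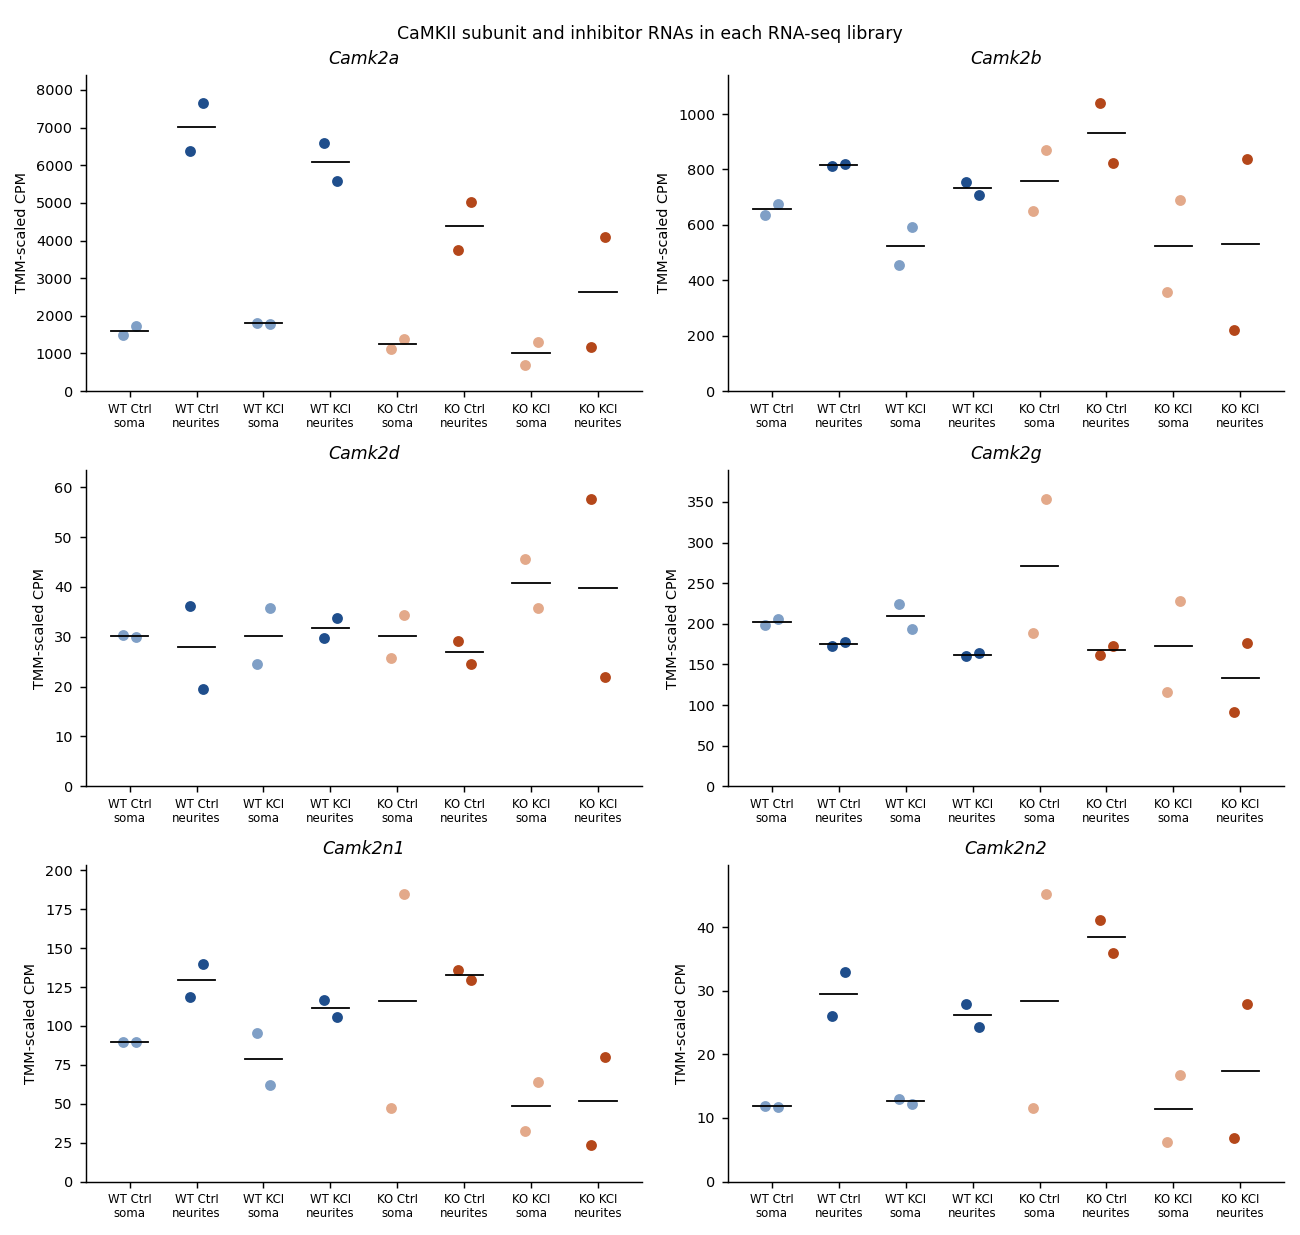
Levels of the 6 CaMKII genes in the 16 RNA-seq libraries. Each panel plots CPM (TMM-scaled) for the 8 groups of 2 libraries, with a point per library and a line at the mean; in WT the Camk2a points sit at 1499 to 1823 CPM in soma and 5589 to 7644 CPM in neurites, while the KO points of most genes are spread widely.

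**Figure D3:**
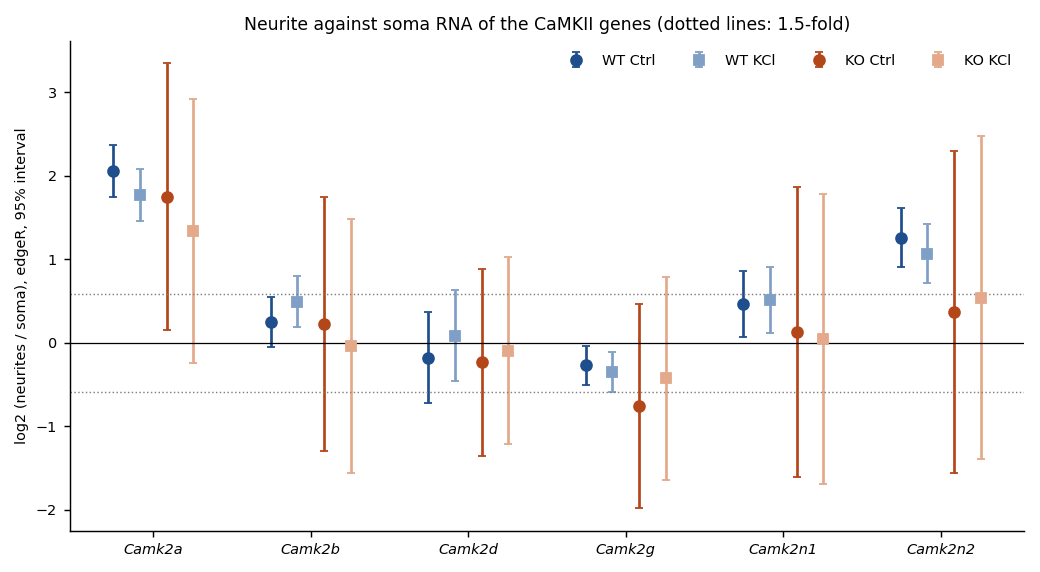
Neurite minus soma log2 difference of each CaMKII gene in WT and KO, Ctrl and KCl. Points are edgeR estimates, bars are 95% intervals and dotted lines mark 1.5-fold; Camk2a (2.06 and 1.77) and Camk2n2 (1.26 and 1.07) lie beyond the line in WT, and the KO intervals are several times wider.

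In Mettl3 KO cultures no member passed the test of neurite against soma, and neither did any of the 23099 genes tested (0.0% in each direction, in Ctrl and in KCl). At an unadjusted edgeR p of at most 0.05 and 1.5-fold, 1214 genes passed in Ctrl and 146 in KCl, and DESeq2 called 13 and 0 genes. Soma and neurite libraries with the same replicate number are taken here as the same insert, which the labels do not state. Camk2a was at 1110 and 1385 CPM in KO Ctrl soma and at 3753 and 5017 CPM in neurites. In KO KCl it was at 703 and 1305 CPM in soma and at 1184 and 4101 CPM in neurites. It was higher in neurites in 4 of 4 KO inserts, by log2 1.76 and 1.86 in Ctrl and by 0.75 and 1.65 in KCl, the smallest in the culture that stood apart.

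The fitted Camk2a difference in KO was 1.75 ± 0.69 in Ctrl (95% interval 0.15 to 3.35; edgeR adjusted p = 0.873) and 1.34 ± 0.68 in KCl (−0.24 to 2.92; edgeR adjusted p = 1). Without the KCl culture of replicate 1 these were 1.76 ± 0.40 and 1.695 ± 0.557. Among all 6 members the soma and neurite ranges overlapped in KO, where 5.42% of genes had all neurite libraries above all soma libraries and 1.22% the reverse.

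The KO spread was largest for the inhibitors. Camk2n1 was at 47.0 and 185 CPM in KO Ctrl soma, 136 and 129 CPM in Ctrl neurites, 32.8 and 63.8 CPM in KCl soma and 23.7 and 80.1 CPM in KCl neurites. Camk2n2 was at 11.6 and 45.2 CPM in KO Ctrl soma, 41.1 and 35.9 CPM in Ctrl neurites, 6.26 and 16.7 CPM in KCl soma and 6.79 and 27.9 CPM in KCl neurites. In Ctrl, both inhibitors thus lay higher in neurites in insert 1 (log2 1.53 for Camk2n1 and 1.82 for Camk2n2) and lower in insert 2 (−0.52 and −0.33). Replicate 2 of KO Ctrl soma was the high library for both.

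The remaining subunits in KO showed no common direction. Camk2b was at 649 and 872 CPM in Ctrl soma, 1039 and 823 CPM in Ctrl neurites, 356 and 688 CPM in KCl soma and 221 and 839 CPM in KCl neurites. Camk2g was at 188 and 354 CPM in Ctrl soma, 162 and 173 CPM in Ctrl neurites, 117 and 229 CPM in KCl soma and 91.1 and 176 CPM in KCl neurites. For Camk2g all 4 inserts had less in neurites than in soma, by log2 −0.22 to −1.03. Camk2d was at 25.8 and 34.4 CPM in Ctrl soma, 29.1 and 24.6 CPM in Ctrl neurites, 45.5 and 35.9 CPM in KCl soma and 57.7 and 21.9 CPM in KCl neurites. Its own highest library was the neurite library of the culture that stood apart.

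The make-up of the kinase message differed between the fractions. To compare genes, levels were divided by kilobases of exon (CPM per kb, called fragments per kb). In WT Ctrl soma the order per kb was Camk2a at 216 ± 20.9 (SD, n = 2), Camk2b at 71.9 ± 3.001, Camk2g at 31.5 ± 0.801, Camk2n1 at 20.2 ± 0.034, Camk2n2 at 9.14 ± 0.155 and Camk2d at 1.34 ± 0.014. In WT Ctrl neurites Camk2a was at 939 ± 121 and Camk2b at 89.5 ± 0.633, followed by Camk2n1 at 29.1 ± 3.34, Camk2g at 27.3 ± 0.479 and Camk2n2 at 22.8 ± 3.79, 3 genes of which Camk2n1 and Camk2g did not differ beyond their spread. Camk2d was again last at 1.24 ± 0.524. The exon length of Camk2d merges 28 transcripts to 22493 bases, so its level per kb can be too low.

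Of the summed subunit fragments per kb, Camk2a made up 66.3 to 73.9% in the 4 WT soma libraries (median 69.7%) and 87.7 to 89.6% in the 4 WT neurite libraries (median 88.4%). Camk2b made up 15.1 to 23.0% in soma and 7.87 to 9.17% in neurites, Camk2g 8.99 to 10.6% and 2.42 to 3.002%, and Camk2d 0.331 to 0.473% and 0.076 to 0.176%. None of the 4 shares overlapped between the fractions. The shares add up to the whole, so a larger Camk2a share lowers the others, and these are not 4 separate results. In CPM, as given above, Camk2b was higher in every WT neurite library than in every soma library, and Camk2d overlapped. In KO, Camk2a made up 54.9 to 61.4% in soma and 78.2 to 85.03% in neurites, below the WT range in each fraction. This difference between genotypes was not tested.

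The Camk2a to Camk2b ratio, which does not depend on library scaling, was tested. Per kb it lay at 2.88 to 4.89 in WT soma (median 3.40) and at 9.58 to 11.4 in WT neurites (median 10.2). The mean log2 ratio was 1.83 ± 0.34 in soma and 3.36 ± 0.12 in neurites (SD, n = 4 each), a difference of 1.53 (exact two-sided permutation test, p = 0.0286, adjusted over 2 tests p = 0.0286). This is the smallest p that 4 against 4 libraries can give. Within Ctrl the difference was 1.80 and within KCl 1.26. The ratio is made from the same Camk2a and Camk2b counts as the enrichment above, so it is not separate evidence. The test treats the 8 libraries as independent. When soma and neurites were paired by insert, the ratio was higher in neurites in 4 of 4 inserts. An exact sign-flip permutation test gave p = 0.125, the smallest that 4 inserts allow. The paired test therefore could not reach 0.05 and does not decide the call, which rests on treating the libraries as independent.

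In KO the ratio lay at 1.94 to 2.41 in soma and at 4.42 to 7.45 in neurites. The mean log2 ratio was 1.13 ± 0.14 and 2.58 ± 0.32, a difference of 1.46 (exact two-sided permutation test, n = 4 each, p = 0.0286, adjusted over 2 tests p = 0.0286), with 1.51 within Ctrl and 1.40 within KCl. Paired by insert, it was higher in neurites in 4 of 4 KO inserts, and the exact sign-flip permutation test again gave p = 0.125. Without the KO culture that stood apart the difference was 1.46. The KO ratios lay below the WT ratios in each fraction without overlap, and that difference between genotypes was not tested. How many other gene pairs separate the genotypes in this way was not counted. Summed astrocyte markers lay at 1930 to 18032 CPM in KO and at 1140 to 3107 CPM in WT libraries, and their part in the ratios was not tested. WT and KO cultures came from different litters, and Ctrl and KCl cultures shared litters.

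The summed inhibitors stood at 23.5 to 31.6 CPM per kb in WT soma and 42.6 to 57.0 in WT neurites, while the summed subunits stood at 303 to 338 and 853 to 1142. For 100 subunit fragments per kb there were therefore 6.97 to 9.73 of the inhibitors in soma and 4.83 to 4.998 in neurites. The balance between the inhibitors moved as well: the Camk2n1 to Camk2n2 ratio per kb was 1.48 to 2.24 in WT soma and 1.22 to 1.33 in WT neurites. In KO the inhibitors per 100 subunits spread over 7.81 to 22.7 in soma and 5.31 to 9.71 in neurites, with overlap. No test was made on these quantities.

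**Figure D4:**
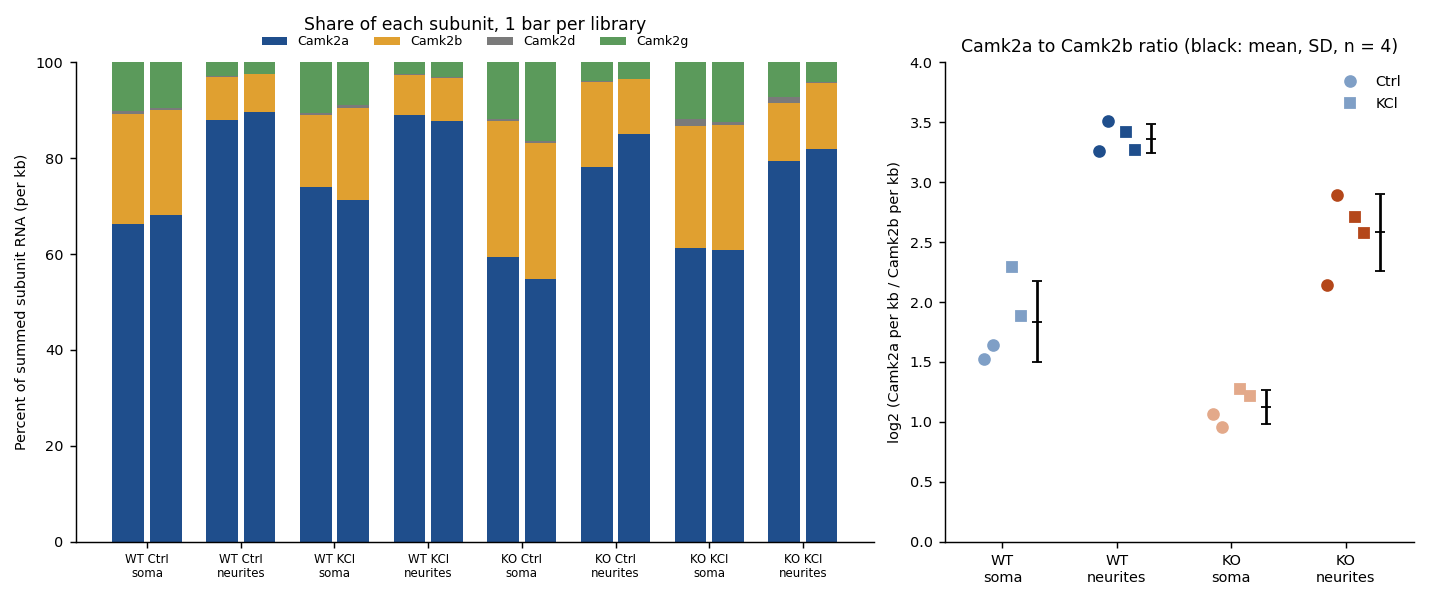
Make-up of the CaMKII subunit message. Left, share of each subunit gene in the summed subunit fragments per kb, in percent, for each of the 16 libraries; right, log2 of the Camk2a to Camk2b ratio per kb, with a point per library and the mean ± SD of 4 libraries, at 1.83 in WT soma and 3.36 in WT neurites and at 1.13 and 2.58 in KO.

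The second comparison asked what 2 h of depolarisation did. No member passed the test of at least 2-fold and an adjusted p of at most 0.05 in WT soma, where 3.8% of genes were called higher and 3.01% lower, or in WT neurites, where 3.24% and 1.7% were. In soma the log2 differences ran from −0.32 ± 0.14 for Camk2b (95% interval −0.62 to −0.02; edgeR adjusted p = 0.16) to 0.17 ± 0.14 for Camk2a (−0.13 to 0.47). In neurites they ran from −0.14 ± 0.18 for Camk2n1 to 0.27 ± 0.25 for Camk2d, and the smallest edgeR adjusted p was 0.567. The intervals of all 6 members in both WT fractions lay between −0.62 and 0.82, so a 2-fold difference of any member lay outside them.

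In KO the KCl differences were much less precise. They ran from −1.31 ± 0.85 for Camk2n2 to 0.44 ± 0.49 for Camk2d in soma and from −1.35 ± 0.76 for Camk2n1 to 0.58 ± 0.49 for Camk2d in neurites, and none passed (smallest edgeR adjusted p = 0.766 and 0.731). No gene was called in either fraction (0.0%), 1432 and 1413 genes passed at an unadjusted p of at most 0.05 and 2-fold, and DESeq2 called 268 and 249 genes. Without the culture that stood apart, Camk2n2 was at −0.76 ± 0.78 and Camk2d at 0.25 ± 0.43 in soma, and Camk2n1 at −0.63 ± 0.78 and Camk2d at −0.19 ± 0.43 in neurites. The signs of Camk2a in soma (0.065) and of Camk2d and Camk2g in neurites (−0.19 and 0.18) were then opposite to those with it.

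The change of neurite enrichment by KCl in WT was within error for every member. It was −0.29 ± 0.19 for Camk2a (95% interval −0.72 to 0.14) and −0.18 ± 0.22 for Camk2n2 (−0.69 to 0.33), the members that were enriched, and it reached 0.34 ± 0.28 for Camk2d. At an unadjusted p of at most 0.05 and 1.5-fold, the limits used in the study for this quantity, 0 of 6 members passed, and 2.0% of genes passed in the positive and 1.35% in the negative direction. No gene passed with an adjusted p.

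The third comparison asked what the loss of Mettl3 did to the level of each RNA. None of the 6 members passed in Ctrl soma, where 0.0643% of genes were called higher and 0.124% lower, or in Ctrl neurites (0.06% and 0.111%), KCl soma (0.0471% and 0.18%) or KCl neurites (0.0986% and 0.334%). Camk2a had the lowest KO value of the family in all 4 settings. Its log2 differences were −0.35 ± 0.49 in Ctrl soma, −0.70 ± 0.49 in Ctrl neurites, −0.85 ± 0.49 in KCl soma and −1.19 ± 0.50 in KCl neurites (95% interval −2.27 to −0.11; edgeR adjusted p = 0.18). Without the culture that stood apart, the KCl soma value was −0.48 ± 0.27. That culture enters the Ctrl values through the shared spread and scaling. Without it they were −0.37 ± 0.22 in Ctrl soma and −0.67 ± 0.22 in Ctrl neurites (edgeR adjusted p = 0.393 and 0.178), and neither passed. In KCl neurites its 2 KO libraries, at 1184 and 4101 CPM, were both below the WT libraries at 6596 and 5589 CPM.

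The KCl neurite value of Camk2a depended on the culture that stood apart. Without both libraries of that culture the log2 difference was −0.58 ± 0.27 (edgeR adjusted p = 0.398). With only replicate 2 of KO KCl neurites left out, which leaves that culture alone in the group, Camk2a was at −2.33. Camk2b was then at −1.696 and Camk2n1 at −2.20, with no p given for a group of a single library. With no filter on low counts Camk2a was at −1.21 (edgeR adjusted p = 0.0199) and Camk2n1 at −1.10 (edgeR adjusted p = 0.0482), past the limits. In that setting 2234 of 50033 genes were called higher and 1050 lower. The neuronal markers of the culture that stood apart were low, as given above, and their part in these values was not tested.

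The other members had KO differences of either sign. Camk2n2 was at 1.26 ± 0.65 in Ctrl soma (95% interval −0.17 to 2.69; edgeR adjusted p = 0.621), with 1 KO library at the WT level and 1 well above it, and at −0.58 ± 0.65 in KCl neurites. Camk2n1 ran from 0.36 ± 0.59 in Ctrl soma to −1.08 ± 0.59 in KCl neurites (edgeR adjusted p = 0.287). Camk2b ran from 0.23 ± 0.49 in Ctrl soma to −0.45 ± 0.49 in KCl neurites. For Camk2d the differences were 0.018, −0.073, 0.43 and 0.35, and for Camk2g 0.43, −0.087, −0.28 and −0.26, in Ctrl soma, Ctrl neurites, KCl soma and KCl neurites. All of these intervals included 0. Camk2n2 in Ctrl soma was at 1.25 ± 0.46 (edgeR adjusted p = 0.193) when the culture that stood apart was left out, and did not pass. Without the culture that stood apart, the KCl neurite values were −0.48 ± 0.58 for Camk2n1 (edgeR adjusted p = 0.797), 0.088 ± 0.55 for Camk2n2, 0.19 ± 0.25 for Camk2b, −0.55 ± 0.36 for Camk2d and 0.12 ± 0.30 for Camk2g, and in KCl soma Camk2d was at 0.23 and Camk2g at 0.12. The targeted gene Mettl3 itself was at −0.72 in Ctrl soma, −1.20 in Ctrl neurites, −0.91 in KCl soma and −0.72 in KCl neurites, and did not pass with adjustment either (smallest edgeR adjusted p = 0.273), so these comparisons can miss differences of that size.

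Whether the loss of Mettl3 changed neurite enrichment was the last comparison. No member passed the limits in Ctrl, where 2.96% of genes passed in the positive and 1.33% in the negative direction, or in KCl (0.716% and 1.13%). No gene passed with an adjusted p. Camk2a had −0.36 ± 0.36 in Ctrl (95% interval −1.18 to 0.45) and −0.53 ± 0.36 in KCl (−1.35 to 0.29). Camk2n2 had −0.62 ± 0.58 and −0.60 ± 0.57, Camk2b −0.066 ± 0.39 and −0.67 ± 0.39, Camk2n1 −0.060 ± 0.57 and −0.58 ± 0.56, Camk2g −0.47 ± 0.29 and 0.019 ± 0.29, and Camk2d −0.029 ± 0.43 and −0.26 ± 0.43.

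The KCl values rested on the culture that stood apart. Without its 2 libraries they were −0.091 ± 0.34 for Camk2a, −0.20 ± 0.42 for Camk2b, −0.19 ± 0.73 for Camk2n1, −0.30 ± 0.77 for Camk2n2, −0.81 ± 0.47 for Camk2d and −0.004 ± 0.39 for Camk2g, and no member passed.

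Single inserts decided several of these values. In Ctrl, without soma replicate 1 of KO, Camk2n2 had −1.63, Camk2n1 −1.03 and Camk2g −0.82. Without neurite replicate 1 they had −1.59, −0.98 and −0.77. Without soma or neurite replicate 2 of KO, Camk2n1 had 0.93, in the opposite direction. Each of these fits leaves a single complete insert in the group, so only sizes are given. In KCl, without soma or neurite replicate 2 of KO, Camk2a had −0.98 and Camk2b −1.17. This setting leaves the glia-rich replicate 1 culture as the only KO KCl insert. Without that culture instead, they had −0.091 and −0.20. With no filter on low counts Camk2b had −0.70 in KCl, past the unadjusted limits. Of 50033 genes, 280 passed in the positive and 704 in the negative direction in that setting. In WT, without neurite Ctrl replicate 1, the KCl change of Camk2d was 0.75.

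Around the kinase, 41 genes of the calmodulin and CaMKII pathway were counted in the same fits. In WT Ctrl 9 were higher in neurites and 1 lower, with a median log2 difference of 0.14 beside −0.10 over all genes, of which 8.99% were called higher and 4.52% lower. Of the 6 genes of calmodulin and its binding proteins, 5 were higher, among them Gap43, a growth-cone protein that binds calmodulin, at 0.92 (edgeR adjusted p = 0.000574), and Nrgn and Pcp4, which also bind calmodulin, at 0.74 and 0.71. Of the 18 binding partners and substrates 3 were higher and 1 lower, among them Shank3, a postsynaptic scaffold, at 1.36 (edgeR adjusted p = 0.00104). Ppm1f, a phosphatase that acts on CaMKII, was the 1 of 8 phosphatases that was higher, at 0.94 (edgeR adjusted p = 0.00167). None of the 9 related kinases passed.

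In WT KCl 10 of the 41 were higher and 2 lower, with a median of 0.26 beside −0.03 over all genes, of which 6.84% were called higher and 2.7% lower. They included 4 of 6 calmodulin genes and binding proteins, 1 of 9 kinases, 2 of 8 phosphatases and, of 18 partners and substrates, 3 higher and 2 lower. Gap43 was at 0.94 (edgeR adjusted p = 0.000891), Nrgn, a postsynaptic calmodulin-binding protein, at 0.87 (edgeR adjusted p = 0.00202), Dlg4, the scaffold PSD-95, at 1.25 (edgeR adjusted p = 0.00315) and Shank3 at 1.15 (edgeR adjusted p = 0.00331). As values, the log2 differences of Camk2a were above those of all called pathway genes in both conditions, and those of Camk2n2 were near those of Shank3.

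None of the 41 pathway genes was called for KCl in either WT fraction, for neurites against soma in KO, or for KO against WT. Their median KO difference was −0.35 in Ctrl soma, −0.34 in Ctrl neurites, −0.59 in KCl soma and −0.78 in KCl neurites, beside 0.02, 0.01, 0.03 and 0.09 over all genes. Without the culture that stood apart these medians were −0.38, −0.31, −0.33 and −0.30, beside −0.02, 0.04, −0.02 and −0.03 over all genes. In that setting 3 of the 41 genes were called lower in Ctrl soma, beside 287 of all 22901 genes lower and 124 higher. Astrocyte markers summed to 1930 to 6858 CPM in the other KO libraries and to 1140 to 3107 CPM in WT, neuronal markers to 2898 to 4088 and 3566 to 4112 CPM, and their part in these medians was not tested. For the change of enrichment by the KO in KCl, Tiam1, an activator of Rac and a CaMKII substrate, passed the unadjusted limits at −0.92 (edgeR adjusted p = 1), and none of the 41 passed without the culture that stood apart.

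The pattern of each gene over the 16 libraries was set against 12669 protein-coding genes. Camk2a was most like Gng7 (Pearson r = 0.984), Kif5a (0.974) and Wdr13 (0.968), and Camk2b was most like Gnao1 (0.978), Grb2 (0.964) and Actl6b (0.964). Camk2g was most like Gm20604 (0.981), Spryd7 (0.979) and Rmnd5b (0.971). For the inhibitors the closest were Syndig1l (0.97), Prmt8 (0.962) and Kcnip2 (0.96) for Camk2n1 and Dmwd (0.967), Prkcb (0.967) and Arf3 (0.965) for Camk2n2. Camk2d stood apart from the family: its closest genes were Rrbp1 (0.902), C4b (0.898) and Abhd3 (0.885). Over the 8 WT libraries alone, r with the same genes was 0.99 to 0.993 for Camk2a, 0.759 to 0.974 for Camk2b and 0.924 to 0.962 for Camk2g. It was 0.80 to 0.934 for Camk2n1, 0.951 to 0.955 for Camk2n2 and 0.679 to 0.895 for Camk2d.

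Within the family the inhibitors followed each other (r = 0.882) and Camk2b (0.847 for Camk2n1 and 0.853 for Camk2n2), whereas Camk2a and Camk2b had r = 0.601 and Camk2a and Camk2g had −0.015. Camk2d was negatively correlated with all others, from −0.437 to −0.664. The points share inserts and litters and include the culture that stood apart, so these values are descriptions.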

How the data were processed

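RNA-seq was made from 50 ng of RNA per fraction. The authors trimmed reads with Flexbar, aligned them to mm10 with STAR (2.7.7a) and counted fragments on exons with featureCounts (2.0.1, multi-mapping reads kept, no strand setting, Ensembl release 97). The deposited counts are raw fragments per gene, with the exon length beside them. DART-seq sites were called by the authors with Bullseye, WT against KO. Per the labels and methods, the deposited site values are the fraction of edited reads, averaged over WT libraries, and the deposited score of an RNA is the sum of such means over its sites, so replicates are pooled and depth is unknown. Columns with the authors' own fold changes and p-values (DESeq2) were not used. Site positions, exons and transcripts were read from a GRCm38 genome with its GENCODE annotation, whose merged exons matched the deposited lengths of the 6 genes.

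Genes that averaged 10 or more counts over the fitted libraries were tested with the quasi-likelihood test of edgeR (4.0.16, R 4.3.3, TMM scaling, two-sided, Benjamini-Hochberg adjustment over all genes), after 37 mitochondrially encoded genes, which held 0 counts, were left out. Neurites against soma and KCl against Ctrl were fitted on the 8 libraries of a genotype, and KO against WT on all 16. The change of enrichment had a term per insert, taken as the libraries of a genotype and treatment with the same replicate number. Limits were an adjusted p of at most 0.05 and 1.5-fold (2-fold for KCl), and, for the change of enrichment, 1.5-fold and p of at most 0.05 before adjustment. Fold values per library use CPM scaled over the 16 libraries, so they differ slightly from fitted values. Intervals are 95% and use the degrees of freedom of edgeR. The script was tested on simulated counts. Alternatives were DESeq2 (1.42.0), RLE scaling, other count filters, other sets of libraries sharing the spread, a replicate block and each library left out. The Camk2a to Camk2b ratio was tested by exact permutation of libraries and, as an alternative added after seeing the data, within inserts.

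The members, the pathway list and all rules were chosen with earlier results of these data known. Named beside the 6 members were Mettl3, in each comparison up to 4 pathway genes past the limits with the smallest p, and for each member the 3 protein-coding genes with the highest Pearson correlation of log2 CPM (prior count 2) among those with a mean count of at least 100. Nrgn and Pcp4 in WT Ctrl were named after their values were seen, and 1 gene that this rule names is not reported here. Whether replicate numbers pair libraries was checked by correlating deviations from group means over 15170 genes. Soma and neurites of the same number gave r = −0.137 in WT Ctrl, 0.033 in WT KCl, 0.076 in KO Ctrl and 0.897 in KO KCl. Deviations thus went together only in KO KCl. In the other groups the pairing of inserts by number is an assumption that these values do not bear out.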

Additional observations from a re-analysis of the deposited data

How the results depend on the processing

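The fits limit most statements on the KO: with 2 libraries a group and the wider KO spread, intervals of KO values often span more than 2 log2 units. The 2 calls of WT enrichment, for Camk2a and Camk2n2, held in the alternatives that kept to WT libraries with 2 libraries a group. These were DESeq2, RLE scaling, the other count filters, the replicate block and only the 4 libraries of the contrast. The largest adjusted p among them was 0.00594 (edgeR, Camk2n2 in KCl, replicate block). With each library left out a group holds a single library, so only sizes are given for those fits. Over all of these fits Camk2a ranged from 1.89 to 2.24 in Ctrl and from 1.63 to 1.90 in KCl, and Camk2n2 from 1.04 to 1.45 and from 0.95 to 1.18. With all 16 libraries in 1 fit, 0 of 6 members were called in either condition, and 0 genes, with the pooled coefficient of variation at 0.381 in place of 0.151 and 1601 and 1101 genes at an unadjusted p of at most 0.05 and 1.5-fold. By counts not divided by length, Camk2a made up 64.4% of the subunits in WT Ctrl soma and 87.2% in neurites (67.2% and 88.8% per kb). Summing the deposited site fractions gave WT scores of 0.104 for Camk2a, 0.192 for Camk2b, 0.237 for Camk2g, 0.138 for Camk2n1 and 0.0170 for Camk2n2. A replicate block changed no call of a member in a fit across genes, and it moved the Camk2n1 value in KO KCl enrichment to −0.10. Pairing libraries by insert, chosen after seeing the data, left the Camk2a to Camk2b difference at 1.53 in WT and 1.46 in KO but raised the exact permutation p from 0.0286 to 0.125, the smallest that 4 inserts allow. Ctrl and KCl cultures came from the same litters, but which library numbers share one is not given in the sources used here.

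The number of members called for KO against WT in KCl neurites, 0 as reported, was 2 with no filter on low counts. In that setting 2234 of 50033 genes were called higher and 1050 lower. For the change of enrichment by the KO in KCl it was 1 with no filter, beside 280 genes higher and 704 lower. With 1 library left out, a group holds a single library, and the number of members called also moved in these comparisons. It moved as well for the change of enrichment by KCl in WT and by the KO in Ctrl. DESeq2 called 2 of the 41 pathway genes for KO against WT in Ctrl soma, 1 in Ctrl neurites and 5 in KCl neurites, where edgeR called 0, and for the change of enrichment by the KO 1 in Ctrl and 2 in KCl, where edgeR called 0 and 1. Without both libraries of the KCl-treated KO culture of replicate 1, also chosen after seeing the data for this list, edgeR called 3 for KO against WT in Ctrl soma and 0 for the change of enrichment by the KO in KCl. Beside those 3, all lower, 287 of 22901 genes were called lower in Ctrl soma and 124 higher. Over all genes, DESeq2 called 413, 306, 1029 and 2590 genes for KO against WT in Ctrl soma, Ctrl neurites, KCl soma and KCl neurites. Of 1098 alternative values of the 90 member values, 976 kept direction and side of the limits, 4 lost and 19 gained a call, and 99 had the opposite sign. None of the 4 calls turned, and the largest value that turned was 1.26 in size.

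With 1 library left out, the values that turned were as follows. For enrichment in WT Ctrl, the range was −0.65 to 0.17 for Camk2d. For enrichment in WT KCl, the range was −0.14 to 0.40 for Camk2d. For enrichment in KO Ctrl, the range was −0.42 to 1.42 for Camk2n1 and −0.17 to 1.65 for Camk2n2. For enrichment in KO KCl, the range was −1.29 to 0.70 for Camk2b, −0.89 to 0.47 for Camk2d, −0.97 to 0.13 for Camk2g, −1.08 to 0.75 for Camk2n1 and −0.81 to 1.41 for Camk2n2. For the KCl response in WT soma, the range was −0.31 to 0.28 for Camk2d, −0.027 to 0.16 for Camk2g and −0.50 to 0.072 for Camk2n1. For the KCl response in WT neurites, the range was −0.28 to 0.049 for Camk2a, −0.076 to 0.74 for Camk2d, −0.084 to 0.019 for Camk2g, −0.28 to 0.018 for Camk2n1 and −0.29 to 0.12 for Camk2n2. For the KCl response in KO soma, the range was −0.82 to 0.11 for Camk2a and −1.96 to 0.023 for Camk2n1. For the KCl response in KO neurites, the range was −0.21 to 0.97 for Camk2d and −1.01 to 0.16 for Camk2g. For the KO difference in Ctrl soma, the range was −0.17 to 0.22 for Camk2d, −0.054 to 0.84 for Camk2g and −0.89 to 1.06 for Camk2n1. For the KO difference in Ctrl neurites, the range was −0.42 to 0.39 for Camk2d, −0.15 to 0.001 for Camk2g and −0.13 to 0.17 for Camk2n1. For the KO difference in KCl soma, the range was −0.54 to 0.39 for Camk2b, −0.82 to 0.13 for Camk2g and −0.99 to 0.40 for Camk2n2. For the KO difference in KCl neurites, the range was −1.70 to 0.22 for Camk2b, −0.52 to 0.89 for Camk2d, −0.80 to 0.15 for Camk2g and −1.91 to 0.12 for Camk2n2. For the change of enrichment by KCl in WT, the range was −0.017 to 0.53 for Camk2b, −0.17 to 0.75 for Camk2d, −0.20 to 0.022 for Camk2g, −0.16 to 0.30 for Camk2n1 and −0.50 to 0.034 for Camk2n2. For the change of enrichment by the KO in Ctrl, the range was −0.39 to 0.28 for Camk2b, −0.43 to 0.38 for Camk2d, −1.02 to 0.93 for Camk2n1 and −1.63 to 0.43 for Camk2n2. For the change of enrichment by the KO in KCl, the range was −0.78 to 0.26 for Camk2d and −0.10 to 0.14 for Camk2g.

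With DESeq2, as with RLE scaling, values that turned were 0.002 for Camk2b for enrichment in KO KCl, 0.003 for Camk2b for the KO difference in KCl soma and −0.011 for Camk2g for the change of enrichment by the KO in KCl. With only the 4 libraries of the contrast, the value was 0.048 for Camk2b for enrichment in KO KCl. With all 16 libraries, values were 0.039 for Camk2b for enrichment in KO KCl and −0.022 for Camk2n1 for the change of enrichment by KCl in WT. With a mean count of at least 100, values were −0.001 for Camk2d for the KO difference in Ctrl soma, 0.020 for Camk2d for the change of enrichment by the KO in Ctrl and −0.054 for Camk2g for the change of enrichment by the KO in KCl. With no filter, values were 0.018 for Camk2d for the change of enrichment by the KO in Ctrl and −0.001 for Camk2g for the change of enrichment by the KO in KCl. With only the 8 libraries of the contrast, the value was −0.019 for Camk2g for the change of enrichment by the KO in KCl. Without both libraries of the KCl-treated KO culture of replicate 1, values were 0.33 for Camk2b for enrichment in KO KCl, 0.065 for Camk2a for the KCl response in KO soma, −0.19 for Camk2d for the KCl response in KO neurites, 0.18 for Camk2g for the KCl response in KO neurites, −0.007 for Camk2d for the KO difference in Ctrl soma, 0.38 for Camk2b for the KO difference in KCl soma, 0.12 for Camk2g for the KO difference in KCl soma, 0.39 for Camk2n2 for the KO difference in KCl soma, 0.19 for Camk2b for the KO difference in KCl neurites, −0.55 for Camk2d for the KO difference in KCl neurites, 0.12 for Camk2g for the KO difference in KCl neurites, 0.088 for Camk2n2 for the KO difference in KCl neurites, 0.028 for Camk2d for the change of enrichment by the KO in Ctrl and −0.004 for Camk2g for the change of enrichment by the KO in KCl. The causes of these turns were not tested.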
